A study of Mus musculus with 28 samples.

Results

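The 10 genes described here carry a calcium signal from the membrane of a T cell to its nucleus: Stim1, Orai1, Atp2b1, Ppp3ca, Rcan1, Rcan3, Nfatc1, Nfatc2, Nfatc3 and Camk2b. They were chosen by name, with earlier results of these data known, from 17097 genes measured on Affymetrix arrays of mouse CD4+ T cells. Each gene was read through its probe sets that the platform annotation gives a single symbol, and the probe set with the highest mean log2 intensity over 26 arrays stands for the gene. All values are log2 of normalized intensity, so a difference of 1 is a doubling, and levels of different genes are not compared because each probe set has its own brightness.

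The cells, total CD4+ T cells, were splenic, and the mice were females aged 12 weeks. Among the 3 strains, C57BL/6 is the reference inbred line. B6.Sle1b carries, on that background, a lupus-linked interval of chromosome 1 that spans the SLAM family of receptor genes. Sle1b.BACSlamf6-H1, called Sle1b.BAC below, carries the same interval and a bacterial artificial chromosome transgene named for the H1 form of Slamf6; the source of the transgene's promoter and the number of founder lines are not given in the sources used here. Cells of each strain were taken unstimulated or after 4 h or 24 h on plate-bound antibody 145-2C11 against CD3 at 0.1 µg/ml, in complete RPMI medium at 37 °C. Each of the 9 groups had 3 arrays, except C57BL/6 at 24 h, which had 2 arrays titled biological and 2 titled technical. The technical arrays state no RNA source and entered only the alternatives that name them.

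When a T cell receptor is engaged, calcium leaves the endoplasmic reticulum, STIM1 in that membrane senses the loss and opens the ORAI1 channel of the plasma membrane, and the pump encoded by Atp2b1 (PMCA1) exports the calcium that enters. Calcium bound to calmodulin activates calcineurin, a phosphatase whose catalytic alpha subunit is the product of Ppp3ca, and also calmodulin-dependent kinases such as that of Camk2b. Calcineurin strips phosphates from the NFAT transcription factors, which then enter the nucleus and switch on cytokine genes, often together with AP-1. Members of the RCAN family bind calcineurin and restrain it.

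Rcan1 is a textbook case of feedback in this pathway, because an internal start of the gene is known from other cell types as a calcineurin and NFAT target, whereas its upstream start is not known as one. The 250 bases before both annotated starts of Rcan1 are shown for that reason, beside those of Rcan3, its relative whose level moved the opposite way after stimulation. The sequences are RefSeq's on assembly GRCm38.p6, minus strand, written 5′ to 3′ towards the start, and capitals mark the NFAT core GGAAA, which reads as TTTCC when it lies on the opposite strand, and the AP-1 motif TGANTCA. Both strands were searched.
Rcan1, internal start, chr16:92400079-92400328: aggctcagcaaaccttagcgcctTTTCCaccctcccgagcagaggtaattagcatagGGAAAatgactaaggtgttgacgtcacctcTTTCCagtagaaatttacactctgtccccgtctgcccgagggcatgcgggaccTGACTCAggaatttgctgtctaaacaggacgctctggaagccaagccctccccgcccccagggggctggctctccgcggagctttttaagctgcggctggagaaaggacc
Rcan1, upstream start, chr16:92466170-92466419: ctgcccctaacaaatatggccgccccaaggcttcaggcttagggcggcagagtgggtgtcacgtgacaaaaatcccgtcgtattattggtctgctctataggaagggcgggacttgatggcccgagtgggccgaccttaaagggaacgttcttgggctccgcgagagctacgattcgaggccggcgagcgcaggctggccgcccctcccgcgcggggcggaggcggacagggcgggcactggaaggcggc
Rcan3, chr4:135433806-135434055: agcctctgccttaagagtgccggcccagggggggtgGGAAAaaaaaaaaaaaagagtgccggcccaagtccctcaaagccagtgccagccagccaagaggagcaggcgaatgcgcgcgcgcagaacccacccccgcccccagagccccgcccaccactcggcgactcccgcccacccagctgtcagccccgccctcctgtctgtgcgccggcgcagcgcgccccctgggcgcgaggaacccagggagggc
The window before the internal Rcan1 start held 3 NFAT cores and 1 AP-1 motif, the window before its upstream start held neither, and that of Rcan3 held 1 core. Of 32817 promoter windows of the same length, 55.6% held at least 1 core, 6.38% at least 3 and 6.75% an AP-1 motif. In all, 8 of the 10 genes had 12 such windows; Nfatc2 had 1 core before 1 start and 3 before the other, Nfatc3 and Atp2b1 each had 1 core in 1 of 2 windows, and those of Orai1, Stim1 and Camk2b had none. A match describes letters and not a bound site, and the array does not say which Rcan1 start a transcript came from.

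The arrays differed in scale, with a 75th percentile of intensity between 34.2 and 53.3, or 5.095 and 5.736 on the log2 scale. The main fit did not adjust for this. With each array's 75th percentile as a covariate, all-gene calls in the mean 4 h response rose from 3113 to 4447. Background, the 95th percentile of the nonspecific control probe sets, lay between 2.76 and 3.21 on the log2 scale. Outside 24 h the 3 dimmest arrays were replicate 2 of unstimulated C57BL/6, replicate 3 of unstimulated B6.Sle1b and replicate 2 of Sle1b.BAC at 4 h, and the main changes without them are given beside the results. The brightest Slamf6 probe set had unstimulated means of 7.28 (C57BL/6), 8.40 (B6.Sle1b) and 8.49 (Sle1b.BAC), and the next brightest 7.85, 6.55 and 6.80, so the probe sets of the gene named in the transgene order the strains differently. None of the 9 T cell markers tested was at background, and their mean log2 level lay between 9.24 and 9.68 in every group. Of 11 B cell markers tested, 2 or 3 were at background in each group, Pax5 and Cr2 in all, and the others were above it, with a mean log2 level of the list between 4.96 and 5.59. Because RNA came from a mixed pool, fewer cells of a type and less RNA per cell cannot be told apart.

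Of the 10 genes, 9 were above background on all 26 arrays titled biological and Rcan1 was on 25. Tests were limma contrasts on 9 group means, with Benjamini-Hochberg adjustment over all 17097 genes, and a gene was called at an adjusted p under 0.05. Separate mice are not stated for the arrays of a group, so a p-value covers only the spread seen between arrays, which may be technical.

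**Figure D1:**
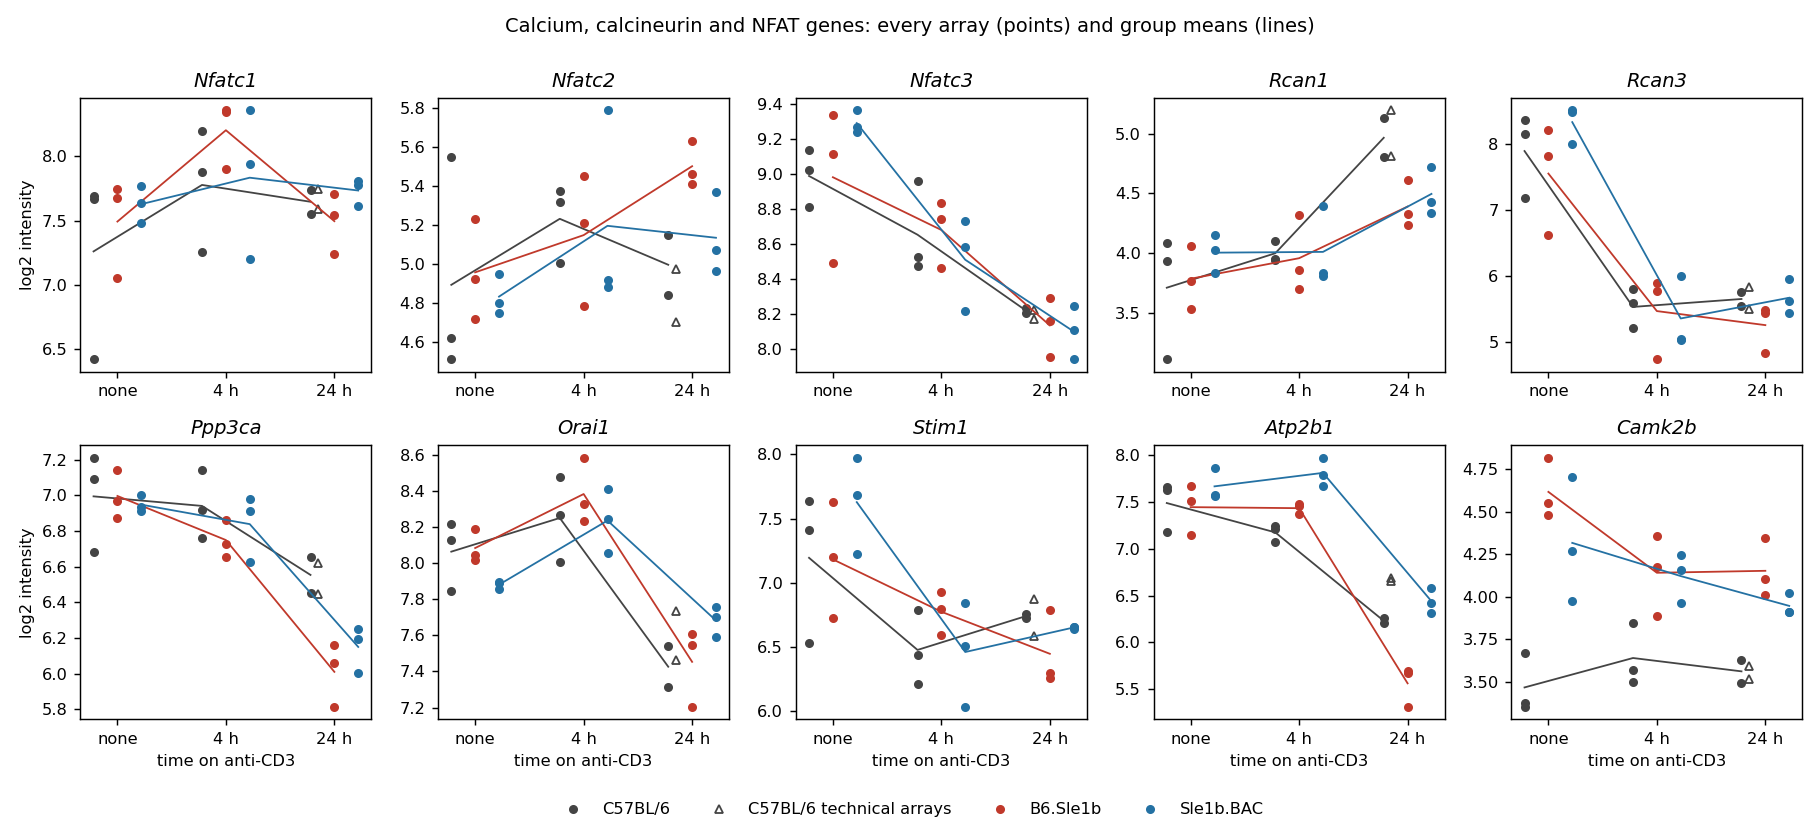
Log2 intensity of the 10 genes on every array by time on anti-CD3 (none, 4 h or 24 h), with points for arrays, open triangles for the technical arrays of C57BL/6 and lines through the group means. Rcan3 dropped from 6.62 or more in unstimulated cells to 5.99 or less at 4 h and 24 h, and Camk2b of C57BL/6 lay under that of the other strains at each time.

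After anti-CD3, more of these genes were called lower than higher. Because the genes were chosen with earlier results of these data known, their shares beside all genes describe this list only. At 4 h, averaged over the strains, Orai1 was called higher and Nfatc3, Rcan3 and Stim1 lower, 4 of 10 where 18.2% of all genes were called (8.15% higher and 10.1% lower). At 24 h Rcan1 was called higher, and Nfatc3, Rcan3, Ppp3ca, Orai1, Stim1, Atp2b1 and Camk2b lower, 8 of 10 where 40.4% of all genes were called (22.9% higher and 17.4% lower). From 4 h to 24 h Rcan1 was called higher and Nfatc3, Ppp3ca, Orai1 and Atp2b1 lower, 5 of 10 where 34.6% of all genes were called. The median of the 10 log2 differences was -0.10 at 4 h and -0.60 at 24 h, beside 0.02 and 0.06 over all genes. Of the 9 T cell markers, 4 were called lower at 4 h, and 2 higher and 6 lower at 24 h; their part in the results was not tested. The 4 h and 24 h comparisons use the same unstimulated arrays.

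Stim1 (chr7:102261514-102437319; gene positions here are RefSeq's on GRCm38.p6), the calcium sensor of the endoplasmic reticulum, was lower at both times. In unstimulated cells its level was 7.64, 6.54 and 7.41 in C57BL/6, 7.20, 7.63 and 6.72 in B6.Sle1b, and 7.97, 7.69 and 7.22 in Sle1b.BAC. The 4 h levels were 6.79, 6.44 and 6.21, then 6.80, 6.93 and 6.60, then 6.84, 6.04 and 6.51 in the same order of strains. Those at 24 h were 6.73 and 6.75, then 6.79, 6.30 and 6.26, then 6.66, 6.66 and 6.64. The low unstimulated readings in C57BL/6 and B6.Sle1b were those of the dim arrays, and they overlapped the stimulated range. The mean difference was -0.76 ± 0.15 (SE) at 4 h (adjusted p = 8.26e-04) and -0.72 ± 0.16 at 24 h (adjusted p = 7.27e-04). Between 4 h and 24 h Stim1 differed by 0.04 (95% interval -0.29 to 0.38), which was not called. Without the 3 dim arrays the differences from unstimulated cells were -0.88 and -0.91. Stim1 has a single probe set.

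Orai1 (chr5:123015074-123030452), the pore of the channel, was called higher at 4 h and lower at 24 h. Its unstimulated level was 8.22, 7.85 and 8.12 in C57BL/6, 8.05, 8.19 and 8.02 in B6.Sle1b, and 7.89, 7.86 and 7.89 in Sle1b.BAC. After 4 h it stood at 8.27, 8.48 and 8.0, then 8.24, 8.58 and 8.33, then 8.41, 8.24 and 8.05. After 24 h it stood at 7.54 and 7.31, then 7.61, 7.55 and 7.20, then 7.76, 7.70 and 7.59, and every 24 h array lay under every other array. The rise at 4 h was small, 0.28 ± 0.08 (1.21-fold, adjusted p = 0.0162), and was no longer called when each array was centred on its median (0.26, adjusted p = 0.0804) or without the 3 dim arrays (0.23, adjusted p = 0.0528). At 24 h Orai1 stood at -0.49 ± 0.08 against unstimulated cells (adjusted p = 4.11e-05) and at -0.77 ± 0.08 against 4 h (adjusted p = 9.73e-08). The second Orai1 probe set gave 0.46 at 4 h and -0.50 at 24 h, both called over all probe sets in the mean of the strains.

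Atp2b1 (chr10:98914630-99026143), the pump that exports calcium, was not called at 4 h and was lower at 24 h. Unstimulated arrays read 7.63, 7.18 and 7.66 in C57BL/6, 7.15, 7.68 and 7.51 in B6.Sle1b, and 7.57, 7.86 and 7.58 in Sle1b.BAC. At 4 h they read 7.25, 7.21 and 7.07, then 7.46, 7.48 and 7.37, then 7.98, 7.67 and 7.79. At 24 h they read 6.26 and 6.20, then 5.67, 5.70 and 5.31, then 6.42, 6.31 and 6.58. All 24 h arrays lay below all others, with B6.Sle1b lowest. The 24 h difference was -1.46 ± 0.09, or 2.75-fold lower (adjusted p = 5.65e-12), while that at 4 h was -0.06 ± 0.09 (adjusted p = 0.733). The other probe sets of Atp2b1 gave -1.36 and -1.38 at 24 h, both called.

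Ppp3ca (chr3:136669714-136937727), the catalytic alpha subunit of calcineurin, was likewise called lower at 24 h and not at 4 h. It read 7.21, 6.68 and 7.09 in unstimulated C57BL/6, 6.97, 7.15 and 6.87 in B6.Sle1b, and 6.93, 7.0 and 6.91 in Sle1b.BAC. Its 4 h readings were 7.14, 6.92 and 6.76, then 6.86, 6.66 and 6.73, then 6.91, 6.63 and 6.98. The 24 h readings were 6.66 and 6.45, then 5.81, 6.16 and 6.06, then 6.0, 6.20 and 6.25, all below the unstimulated arrays. The difference was -0.14 ± 0.08 at 4 h (adjusted p = 0.31) and -0.74 ± 0.08 at 24 h (adjusted p = 1.43e-07). A second probe set gave -0.22, not called, and -0.90, called.

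Rcan3 (chr4:135412308-135433871), a calcineurin-binding inhibitor, showed the largest 4 h and 24 h differences of the 10 genes. Its unstimulated level was 8.14, 7.17 and 8.36 in C57BL/6, 7.82, 8.21 and 6.62 in B6.Sle1b, and 8.51, 8.48 and 7.99 in Sle1b.BAC. On the 4 h arrays it was 5.79, 5.59 and 5.20, then 5.77, 5.89 and 4.74, then 5.99, 5.03 and 5.04. On the 24 h arrays it was 5.75 and 5.55, then 5.48, 5.44 and 4.83, then 5.44, 5.61 and 5.95. Every stimulated array lay below every unstimulated array, although the dim arrays read low within their groups. The drop was 5.56-fold at 4 h (log2 difference -2.48 ± 0.22, adjusted p = 1.5e-08) and 5.28-fold at 24 h (-2.40 ± 0.23, adjusted p = 7.42e-09). Without the 3 dim arrays the values were -2.70 and -2.68. The second, dimmer probe set of Rcan3 gave -1.68 and -2.06, both called.

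Rcan1 (chr16:92391951-92466169), the inhibitor whose 2 starts are shown above, was the only one of the 10 called higher at 24 h. It was dim, at 4.08, 3.11 and 3.94 in unstimulated C57BL/6, 4.06, 3.76 and 3.53 in B6.Sle1b, and 4.02, 3.83 and 4.15 in Sle1b.BAC. At 4 h it was 3.95, 4.10 and 3.94, then 4.32, 3.69 and 3.86, then 4.39, 3.80 and 3.83. At 24 h it was 5.13 and 4.80, then 4.32, 4.61 and 4.23, then 4.43, 4.34 and 4.72, all above the unstimulated range. The difference was 0.16 ± 0.13 at 4 h (adjusted p = 0.506), 0.79 ± 0.13 at 24 h (1.72-fold, adjusted p = 3.58e-05) and 0.63 ± 0.13 between 4 h and 24 h (adjusted p = 5.28e-04). Because unstimulated levels were close to background, the fold may understate the change. Without the 3 dim arrays the 24 h value was 0.64. A second Rcan1 probe set was at background on all 26 arrays and gives no second reading.

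The NFAT genes differed among themselves. Against unstimulated cells Nfatc3 was lower at both times, Nfatc1 depended on the probe set, and Nfatc2 was not called at either time.

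Nfatc3 (chr8:106058818-106130537), an NFAT factor of resting T cells, read 9.13, 8.81 and 9.02 in unstimulated C57BL/6, 9.34, 9.11 and 8.49 in B6.Sle1b, and 9.36, 9.27 and 9.24 in Sle1b.BAC. After 4 h it read 8.96, 8.52 and 8.47, then 8.83, 8.74 and 8.46, then 8.58, 8.22 and 8.73. After 24 h it read 8.21 and 8.23, then 7.95, 8.29 and 8.16, then 8.11, 8.25 and 7.94, all below the unstimulated arrays. The difference was -0.47 ± 0.11 at 4 h (adjusted p = 0.00224) and -0.93 ± 0.11 at 24 h (1.91-fold lower, adjusted p = 2.31e-07). Without the 3 dim arrays these were -0.53 and -1.05. Its 3 probe sets were all called lower at 24 h, at -0.93, -1.28 and -0.90.

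Nfatc1 on chromosome 18, the family member known to be induced in activated T cells, had its brightest probe set at 7.69, 6.42 and 7.67 in unstimulated C57BL/6, 7.68, 7.74 and 7.06 in B6.Sle1b, and 7.77, 7.48 and 7.64 in Sle1b.BAC. At 4 h it stood at 8.20, 7.88 and 7.25, then 8.36, 8.35 and 7.90, then 8.36, 7.20 and 7.94. At 24 h it stood at 7.74 and 7.55, then 7.55, 7.70 and 7.24, then 7.81, 7.78 and 7.62. Arrays pooled over the strains overlapped at both times, although within B6.Sle1b all 4 h arrays lay above the unstimulated ones. The differences of 0.48 ± 0.18 at 4 h (adjusted p = 0.0674) and 0.17 ± 0.18 at 24 h (adjusted p = 0.536) were not called. The 4 h value was called without replicate 2 of Sle1b.BAC at 4 h (0.58, adjusted p = 0.0173), without replicate 3 of C57BL/6 at 4 h (adjusted p = 0.0297), without replicate 1 or replicate 3 of unstimulated C57BL/6 (adjusted p = 0.0403 and 0.0428), and without the 3 dim arrays (0.37, adjusted p = 0.0251). It was also called after a second quantile normalization (0.53, adjusted p = 0.00451) and with each array's 75th percentile as a covariate (0.62, adjusted p = 2.34e-05), which made the 24 h value called as well (0.36, adjusted p = 0.00522). The gene's 4 other probe sets had the opposite sign at 24 h, at -0.82, -0.84, -0.41 and -0.32, of which the first 3 were called with adjusted p of 0.00358, 0.0045 and 0.00523 over 45037 probe sets. The mean of all 5 probe sets was called lower at 24 h (-0.44, adjusted p = 0.0316). At 4 h the other probe sets lay between -0.32 and -0.01 and none was called. From 4 h to 24 h all 5 probe sets were lower, the brightest by -0.31 (not called) and the others by -0.50, -0.68, -0.40 and -0.32. Of these, -0.68 and -0.40 were called (adjusted p = 0.0253 and 0.00745, limma). The brightest was called there without the 3 dim arrays (-0.42, adjusted p = 0.00568), as was the mean of all 5 (-0.44, adjusted p = 0.0382). Which transcripts each probe set reads was not analysed here.

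Nfatc2 (chr2:168476410-168601657), the other NFAT factor of resting T cells, read 4.62, 5.55 and 4.51 in unstimulated C57BL/6, 4.72, 4.92 and 5.23 in B6.Sle1b, and 4.75, 4.80 and 4.95 in Sle1b.BAC. Stimulated for 4 h, the groups read 5.01, 5.37 and 5.31, then 4.79, 5.21 and 5.45, then 4.92, 5.79 and 4.88, and at 24 h 4.84 and 5.15, then 5.41, 5.46 and 5.63, then 5.37, 5.07 and 4.96. The high unstimulated reading of 5.55 belongs to the dim array of C57BL/6, whose median intensity (10.48) was among the highest. The differences of 0.30 ± 0.14 at 4 h (adjusted p = 0.183) and 0.32 ± 0.15 at 24 h (adjusted p = 0.102) were not called with all arrays. Without that array they were 0.41 (adjusted p = 0.0204) and 0.42 (adjusted p = 0.00971), both called. Its 2 further probe sets were above background on 7 arrays and 1 array.

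**Figure D2:**
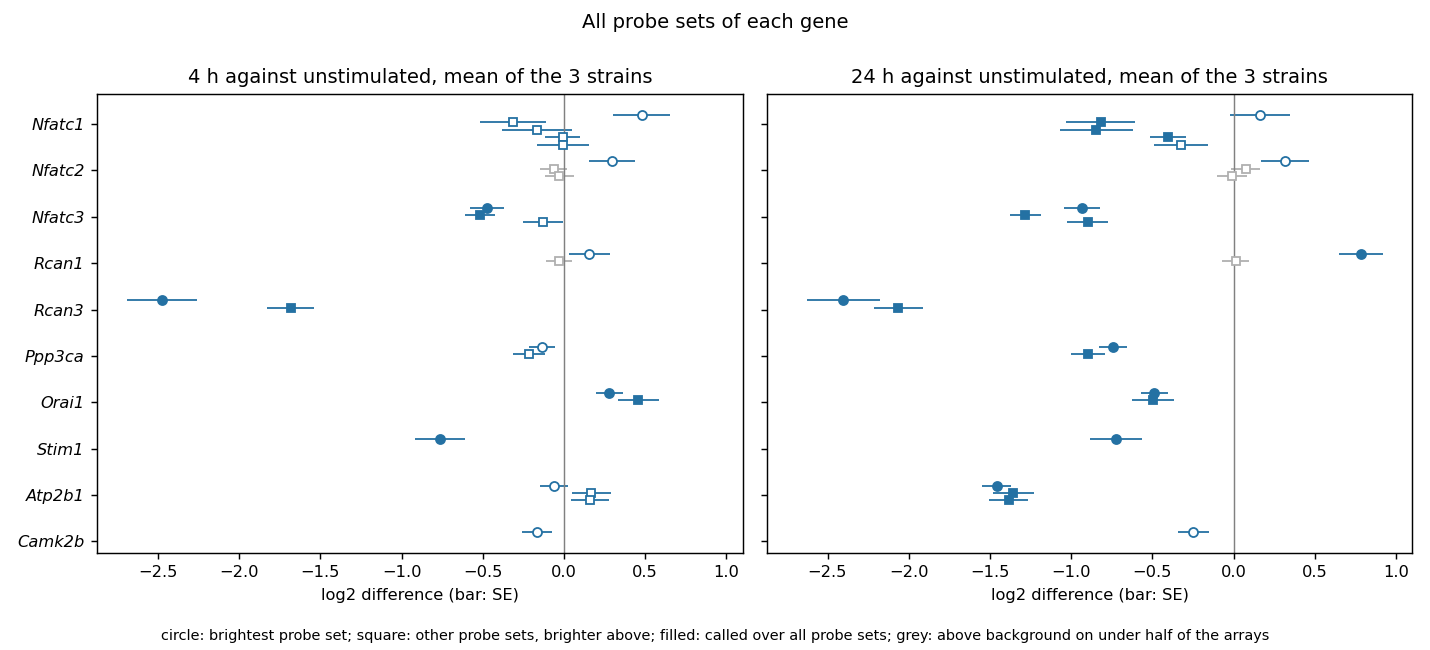
Log2 difference from unstimulated cells, averaged over the strains, for every probe set of each gene at 4 h (left) and 24 h (right), with bars of 1 SE, circles for the brightest probe set, squares for the others, filled where called over 45037 probe sets, and grey where few arrays were above background. Probe sets of Nfatc3, Rcan3, Ppp3ca, Orai1 and Atp2b1 share a direction at 24 h, Nfatc1 splits, and Camk2b, called over genes, is open here.

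Camk2b (chr11:5969629-6066357), the beta form of calmodulin-dependent kinase II, is best known from brain and was dim here, with a mean of 3.47 in unstimulated C57BL/6 where the background mean was 3.08. Unstimulated arrays gave 3.35, 3.38 and 3.67 in C57BL/6, 4.55, 4.82 and 4.48 in B6.Sle1b, and 4.71, 4.27 and 3.98 in Sle1b.BAC. Those at 4 h gave 3.57, 3.85 and 3.50, then 4.18, 4.36 and 3.89, then 4.25, 3.96 and 4.16. Those at 24 h gave 3.63 and 3.49, then 4.10, 4.01 and 4.35, then 3.91, 3.91 and 4.02. C57BL/6 was the lowest strain at each time, with no overlap. The 24 h difference of Camk2b averaged over strains, -0.25 ± 0.10, was at the edge of the threshold (adjusted p = 0.04975) and lost its call without any 1 of 17 of the 26 arrays (values -0.30 to -0.18 over all 26, adjusted p up to 0.131, without replicate 2 of C57BL/6 at 24 h). After a second quantile normalization it was -0.14 (adjusted p = 0.262). By strain, C57BL/6 stood at 0.09 ± 0.18 and B6.Sle1b at -0.46 ± 0.16 (adjusted p = 0.0365). The latter was not called without replicate 1 or 2 of unstimulated B6.Sle1b (adjusted p = 0.0563 and 0.173) or of B6.Sle1b at 24 h (adjusted p = 0.0993 and 0.135).

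**Figure D3:**
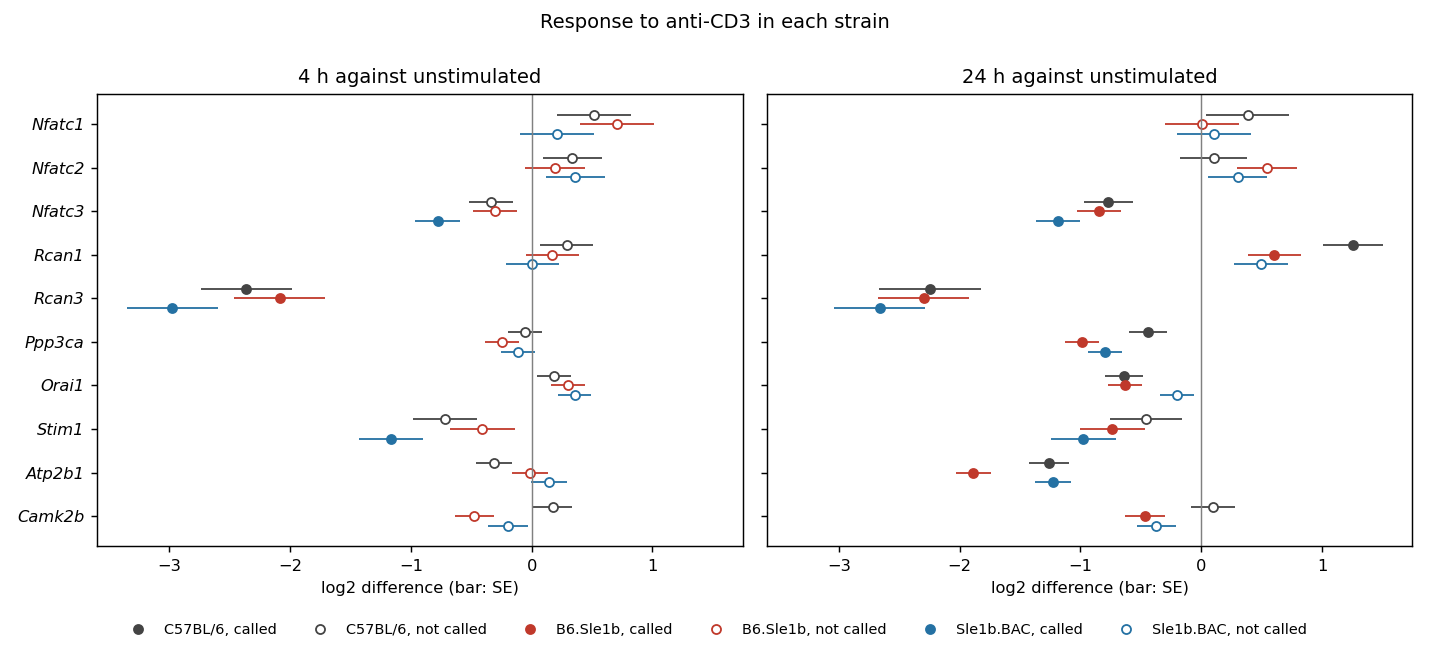
Log2 difference from unstimulated cells at 4 h (left) and 24 h (right) for each gene in each strain, with bars of 1 SE and filled points where called. Rcan3 was called in every strain at both times, and Atp2b1, Nfatc3 and Ppp3ca in every strain at 24 h.

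Strain by strain, 34 of the 90 values were called, beside 19.2% of all gene values. At 4 h C57BL/6 had 1 call (7.04% of all genes), B6.Sle1b 1 (5.69%) and Sle1b.BAC 3 (10.6%). Rcan3 was the gene called in each, with -2.36, -2.09 and -2.98 in that order, and in Sle1b.BAC Nfatc3 (-0.78) and Stim1 (-1.17) were called as well. At 24 h the calls numbered 6 (24.3%), 8 (28.2%) and 5 (29.1%). Between 4 h and 24 h the counts were 3 (18.6%), 4 (24.2%) and 3 (24.8%), with Orai1 and Atp2b1 lower in each strain.

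The dim arrays bore on several of these counts. Without all 3 of them, C57BL/6 at 4 h also had Nfatc2 (0.66, adjusted p = 0.00942), Stim1 (-1.05, adjusted p = 0.0014) and Atp2b1 (-0.47, adjusted p = 0.0382) called, and B6.Sle1b had Nfatc3 (-0.55, adjusted p = 0.0182). At 24 h the calls gained were Stim1 in C57BL/6 (-0.78, adjusted p = 0.0105), Nfatc2 in B6.Sle1b (0.68, adjusted p = 0.00259) and Rcan1 in Sle1b.BAC (0.49, adjusted p = 0.0275), while Rcan1 in B6.Sle1b was no longer called (0.48, adjusted p = 0.0506). Between 4 h and 24 h they were Nfatc3 in C57BL/6 (-0.43) and Sle1b.BAC (-0.56), Ppp3ca in C57BL/6 (-0.39) and Nfatc1 in B6.Sle1b (-0.71). Leaving out only replicate 2 of unstimulated C57BL/6 gave the same Stim1 values, with adjusted p of 0.0111 at 4 h and 0.0435 at 24 h.

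Some single-strain calls were narrow. Rcan1 at 24 h rose 1.26 ± 0.25 in C57BL/6 (adjusted p = 4.48e-04) and, for B6.Sle1b, 0.61 ± 0.22 (adjusted p = 0.0452), while Sle1b.BAC stood at 0.49 ± 0.22 (adjusted p = 0.11). Its call in B6.Sle1b was lost without any 1 of 14 arrays (adjusted p up to 0.167, without replicate 2 of B6.Sle1b at 24 h). Ppp3ca at 24 h was -0.44 in C57BL/6 (adjusted p = 0.0448; up to 0.32 without replicate 2 of that strain at 24 h, and lost without any 1 of 13 arrays), -0.99 in B6.Sle1b and -0.80 in Sle1b.BAC. Stim1 at 24 h stood at -0.45 in C57BL/6 (adjusted p = 0.355). B6.Sle1b gave -0.73 (adjusted p = 0.0432; up to 0.235 without unstimulated replicate 2, and lost without any 1 of 13 arrays) and Sle1b.BAC -0.97 (adjusted p = 0.00682; 0.051 without unstimulated replicate 1). Orai1 at 24 h was -0.64 in C57BL/6 (adjusted p = 0.00341; 0.0735 without replicate 2 at 24 h), where the second probe set gave -0.20 (adjusted p = 0.724) and the mean of both -0.42 (adjusted p = 0.119). It was -0.63 in B6.Sle1b and -0.20 in Sle1b.BAC (adjusted p = 0.365). The second Orai1 probe set had unstimulated and 24 h means of 6.74 and 5.93 in B6.Sle1b and of 6.52 and 6.04 in Sle1b.BAC. Nfatc3 in C57BL/6 at 24 h, -0.77, was not called without replicate 1 at 24 h (adjusted p = 0.0549), and its 4 h call in Sle1b.BAC was lost without the dim array (adjusted p = 0.0565).

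Whether responses differ between strains was tested directly. None of the 60 values for the 10 genes was called (lowest adjusted p = 0.759, limma), where 0.000975% of all gene values were. Among the 60, 9 had an unadjusted p under 0.05 (limma). In any single comparison of responses, between 315 and 903 of the 17097 genes had one, in each a smaller share than 9 of 60. The genes were chosen with earlier results of these data known, so the larger share describes this list only. The smallest adjusted p belonged to Atp2b1, whose 24 h response was -1.89 in B6.Sle1b and -1.23 in Sle1b.BAC, a difference of 0.66 ± 0.21 (95% interval 0.22 to 1.09). Against C57BL/6 (-1.26) the B6.Sle1b response differed by -0.63 ± 0.22 (adjusted p = 0.983). These values hold for the brightest Atp2b1 probe set only. The second had unstimulated means of 7.18, 7.31 and 7.43 in C57BL/6, B6.Sle1b and Sle1b.BAC, and 24 h means of 5.86, 5.83 and 6.16. The third had 7.26, 7.0 and 7.02, then 5.75, 5.49 and 5.89. On both, B6.Sle1b lay closer to C57BL/6 at 24 h than on the brightest, and their response differences were not tested. The Rcan1 response at 24 h in Sle1b.BAC was 0.77 below that in C57BL/6, with a 95% interval of the difference from -1.46 to -0.07 (adjusted p = 1). These intervals are wide, and the comparisons share arrays.

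Between strains, averaged over the 3 times, Camk2b was called higher in both other strains than in C57BL/6, and Atp2b1 was higher in Sle1b.BAC than in B6.Sle1b. In B6.Sle1b against C57BL/6, 1 of the 10 genes was called beside 0.333% of all genes, in Sle1b.BAC against B6.Sle1b 1 beside 0.0819%, and in Sle1b.BAC against C57BL/6 1 beside 0.228%. The strain pairs share arrays and are given side by side.

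Camk2b of B6.Sle1b exceeded that of C57BL/6 1.68-fold (0.75 ± 0.10, 95% interval 0.54 to 0.95, adjusted p = 3.68e-04), and no array of C57BL/6 reached an array of B6.Sle1b. Camk2b of Sle1b.BAC exceeded it 1.49-fold (0.57 ± 0.10, interval 0.37 to 0.78, adjusted p = 0.00723), again without overlap. Between Sle1b.BAC and B6.Sle1b the difference was -0.18 (interval -0.37 to 0.02, adjusted p = 0.87). Camk2b has a single probe set, so these differences have no second reading. By time, B6.Sle1b exceeded C57BL/6 by 1.15 ± 0.16 in unstimulated cells (adjusted p = 0.00197), by 0.50 at 4 h (adjusted p = 1) and by 0.59 at 24 h (adjusted p = 0.84). Sle1b.BAC exceeded C57BL/6 by 0.85 in unstimulated cells (adjusted p = 0.0563), by 0.48 at 4 h and by 0.39 at 24 h, none called. The unstimulated value was called without replicate 3 of unstimulated Sle1b.BAC (1.02, adjusted p = 0.0118) or replicate 3 of B6.Sle1b at 4 h (adjusted p = 0.0417). Unstimulated Camk2b was the 1 call among 90 such values at single times, where 0.0494% of all gene values were called (0.123% in that comparison). It was not called when only the arrays of the strains and time compared entered the fit (adjusted p = 0.727).

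Markers of neutrophils lay higher in the strains where Camk2b was higher, though few passed the test. Of the 10 listed, 8 were tested; their median difference was 0.86 in B6.Sle1b and 0.89 in Sle1b.BAC against C57BL/6, with 0 and 1 called (limma) and 5 and 4 at an unadjusted p under 0.05. Their summed intensity in unstimulated cells ran from 109.8 to 276.4 in C57BL/6, from 144.4 to 710.4 in B6.Sle1b and from 238.1 to 1135 in Sle1b.BAC, and Camp was at background only in unstimulated C57BL/6. At 4 h the sums ran from 89.84 to 240.1, from 134 to 624.4 and from 140.5 to 950.1 in the same order, and at 24 h from 82.75 to 102.5, from 186.2 to 705.7 and from 162.9 to 572.7. In unstimulated C57BL/6 the marker mean was 4.52, 3.71 and 3.56 where Camk2b was 3.35, 3.38 and 3.67. In unstimulated B6.Sle1b it was 5.01, 5.77 and 3.98 where Camk2b was 4.55, 4.82 and 4.48, and in Sle1b.BAC 4.43, 5.48 and 5.96 where Camk2b was 4.71, 4.27 and 3.98. The order of the arrays was thus the same for both in B6.Sle1b and opposite in the other strains. At 4 h the order was again the same in B6.Sle1b and differed in the others, and at 24 h it was the same only in C57BL/6, which had 2 arrays. In Sle1b.BAC at 24 h it differed only through Camk2b values of 3.909 and 3.908. With 2 or 3 arrays a group, these orders are descriptive only. Of the B cell markers, 4 were called lower in B6.Sle1b and 2 in Sle1b.BAC than in C57BL/6, and of 10 monocyte and macrophage markers 1 was called higher in each. Summed erythroid markers in unstimulated cells ran from 1404 to 3846 in C57BL/6, from 3392 to 3914 in B6.Sle1b and from 864.3 to 2250 in Sle1b.BAC. Of the 4 tested, 0 were called against C57BL/6 (medians 0.33 and -0.10), and 2 were called lower at 24 h than in unstimulated cells. The part of these cells in the Camk2b difference was not tested.

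Atp2b1 was 1.41-fold higher in Sle1b.BAC than in B6.Sle1b (0.49 ± 0.09, 95% interval 0.32 to 0.67, adjusted p = 0.0241). The difference was 0.22 in unstimulated cells, 0.38 at 4 h and 0.88 at 24 h, and arrays did not overlap at 4 h or 24 h; none of these was called singly (lowest adjusted p = 0.115, at 24 h). Without the 3 dim arrays the 24 h value was called (adjusted p = 0.033, limma), but that fit kept replicate 3 of B6.Sle1b at 24 h. That array was nearly as dim and gave the lowest Atp2b1 reading, 5.31. The call over the 3 times was lost without replicate 2 of unstimulated Sle1b.BAC (0.46, adjusted p = 0.0851), replicate 1 (adjusted p = 0.061) of Sle1b.BAC at 4 h or replicate 3 (0.0591) of it at 24 h, replicate 2 (0.0517) or replicate 3 (0.0587) of B6.Sle1b at 4 h, or replicate 3 (0.0507) of it at 24 h. The other probe sets of Atp2b1 gave 0.15 and 0.25, neither called (adjusted p = 0.848 and 0.649), and the call was also lost when each array was centred on its median (0.52, adjusted p = 0.142) and with the second brightest probe set (0.15, adjusted p = 0.892). With the replicate number as a random block within strain it was lost as well (0.49, adjusted p = 0.142). As for neutrophil markers, their median difference between these strains was 0.09, with none of 8 called and 0 at an unadjusted p under 0.05 (limma). Against C57BL/6, B6.Sle1b stood at -0.67 at 24 h (adjusted p = 0.416). With the technical arrays of C57BL/6, which read 6.69 and 6.66, averaged as 1 sample, that value was -0.82 (adjusted p = 0.0462). On the other probe sets, without the technical arrays, the 24 h means were 5.86 and 5.75 in C57BL/6 and 5.83 and 5.49 in B6.Sle1b.

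For the other genes the strain means were not called apart. In B6.Sle1b against C57BL/6 they lay between -0.27 (Rcan3) and 0.17 (Nfatc1), in Sle1b.BAC against B6.Sle1b the uncalled values lay between -0.18 (Camk2b) and 0.36 (Rcan3), and in Sle1b.BAC against C57BL/6 between -0.18 (Ppp3ca) and 0.34 (Atp2b1). Orai1 was bounded most closely, with 95% intervals of -0.11 to 0.23, -0.21 to 0.13 and -0.15 to 0.19. Rcan3 was bounded least, with -0.74 to 0.20 for B6.Sle1b against C57BL/6. For Ppp3ca the interval of B6.Sle1b against C57BL/6 left out 0 (-0.42 to -0.07), but the difference was not called after adjustment (adjusted p = 0.634).

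**Figure D4:**
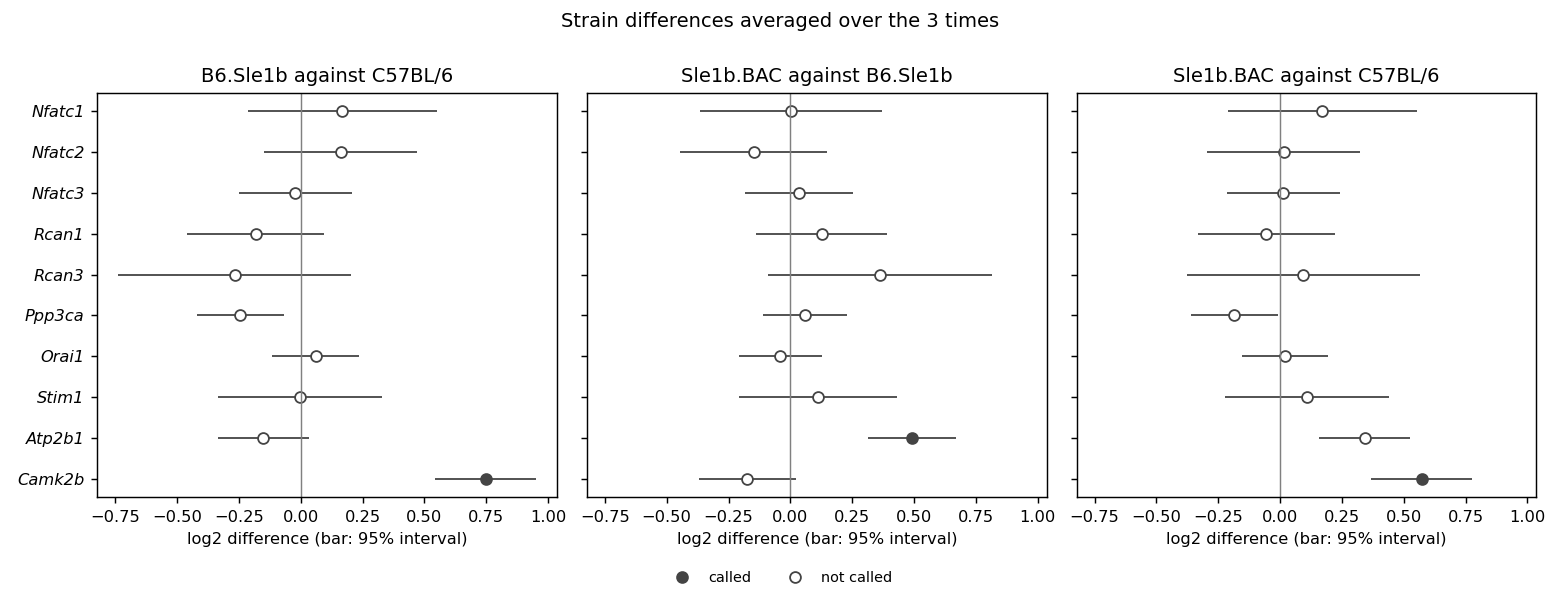
Log2 difference between strains averaged over unstimulated cells, 4 h and 24 h for each gene, with 95% intervals as bars and filled points where called. Camk2b at 0.75 and 0.57 and Atp2b1 at 0.49 are the filled points.

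The rest of the pathway was read through lists of genes by role, none of which was chosen by how its genes moved here but which were drawn up with earlier results of these data known. Of 9 tested genes of store-operated entry and store release, 4 fell and none rose at 4 h (44.4%, where 18.2% of all genes were called), and 5 fell and 1 rose at 24 h (66.7%, where 40.4% were). Saraf, which limits store-operated entry, moved by -0.78 and -1.84. Orai2, a second channel subunit, moved by -0.88 and -1.08, Itpr2, a store-release channel, by -1.12 and -1.21, and Itpkb, a kinase that consumes inositol trisphosphate, by -0.92 and -2.27. Orai3 was the gene that rose at 24 h, by 0.36. The list's median was -0.49 at 4 h and -0.39 at 24 h.

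Of 13 tested pumps, mitochondrial uptake genes and membrane channels, 1 rose and 4 fell at 4 h (38.5% against 18.2% of all genes), and 1 rose and 3 fell at 24 h (30.8%, under the 40.4% of all genes). Kcnn4, the calcium-activated potassium channel of T cells, moved by -1.08 at 4 h. Atp2a3, a pump that refills the store, moved by -0.78 and -0.68 and the channel kinase Trpm7 by -0.38 and -1.0. P2rx4, an ATP-gated channel, moved by -0.27 and -0.36. Mcu, the mitochondrial uniporter, rose by 0.56 at 24 h. Kcna3 was called at 4 h, but both sides were at background, so no size is given. The medians were -0.05 and -0.02.

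Of 12 other calcineurin subunits, inhibitors and partners tested, 2 rose and none fell at 4 h (16.7%, near the 18.2% of all genes), and 5 rose and 1 fell at 24 h (50% against 40.4%). Ppp3cc, the catalytic gamma subunit, rose by 1.32 and 1.94, and Ppp3cb, the beta subunit, by 0.24 at 4 h. Ppp3r1, the regulatory subunit, rose by 0.81 at 24 h, beside Akap1, an anchoring protein, at 1.88 and Fkbp1a, the partner of the drug FK506, at 1.51. Akap5, which anchors calcineurin, fell by 0.43. The medians were 0.03 and 0.27.

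Of 12 calmodulin and calmodulin kinase genes tested, 2 fell and none rose at 4 h (16.7%, near the 18.2% of all genes), and 4 fell and 3 rose at 24 h (58.3% against 40.4%). Camk4 moved by -1.88 and Camk1d by -1.06 at 24 h, and Camk2n1, an inhibitor of kinase II, by -0.71 and -1.76. Calm2 moved by -0.20 and -0.50, whereas Calm3 rose by 0.79 and Camk2d by 0.51 at 24 h. The remaining call, Camk1, was at background in both groups. The medians were -0.12 and 0.02.

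Of 13 other NFAT factors, NFAT kinases and partners, 3 fell at 4 h (23.1% against 18.2% of all genes) and 7 at 24 h (53.8% against 40.4%), and none rose. Mef2d, a transcription factor that works with NFAT, moved by -1.28 and -1.61, Dyrk1a by -0.45 and -1.17, and Dyrk2 by -0.58 and -1.11; the DYRK kinases phosphorylate NFAT. The medians were -0.09 and -0.37.

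Of 14 genes known as transcribed targets of NFAT in T cells, 10 rose and 1 fell at 4 h (78.6% against 18.2% of all genes), and 9 rose and 1 fell at 24 h (71.4% against 40.4%). The cytokine genes Il4 (3.64 and 2.20), Csf2 (3.55 and 3.79), Tnf (2.24 and 1.44), Il2 (1.91 and 3.59) and Ifng (1.62 and 3.24) had the largest rises at 4 h or at 24 h. Fasl, a death ligand, moved by -0.65 and -2.38. The medians were 1.35 and 1.49, beside all-gene medians of 0.02 and 0.06. None of the 73 listed genes tested was called in any of the 3 strain comparisons over the mean of the times (limma), where 4, 6 and 9 had an unadjusted p under 0.05, or 5.48%, 8.22% and 12.3%, beside 5.11%, 6.09% and 6.86% of all genes.

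**Figure D5:**
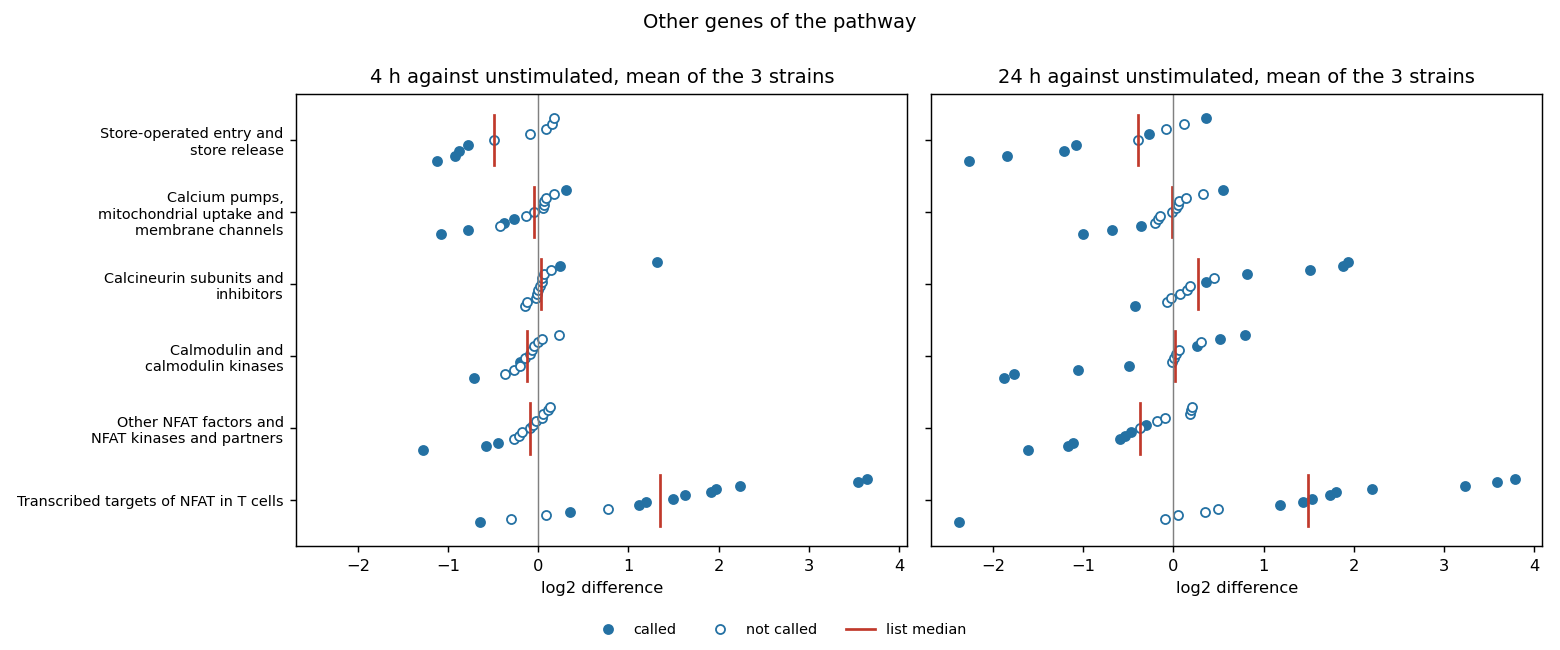
Log2 difference from unstimulated cells, averaged over the strains, for every tested gene of the 6 lists at 4 h (left) and 24 h (right), with filled points where called and a bar at each list's median. The median of the NFAT targets lies at 1.35 and 1.49 and that of the entry genes at -0.49 and -0.39.

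The genes whose 9 group means varied most were Rcan3, Atp2b1 and Nfatc3, and for each the closest profiles were sought among 5156 other genes with a mean log2 level above 6. The 3 closest to Rcan3 by Pearson correlation over the 9 group means were B4galt1 (0.995), Hsdl1 (0.994) and Otulinl (0.992), which moved by -1.11, -0.96 and -1.22 at 4 h. The closest to Atp2b1 were Rnf6 (0.986), Pcf11 (0.983) and Ccser2 (0.983), which moved by -0.20, -0.03 and -0.28 at 4 h and by -1.02, -0.61 and -1.65 at 24 h. The closest to Nfatc3 were Snrk (0.995), Ank (0.991) and Klhdc3 (0.991), which moved by -1.02, -1.14 and -0.68 at 24 h. The group means share arrays and scaling across genes, and the correlations describe them only.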

How the data were processed

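The 28 arrays are of the Affymetrix HT MG-430 PM type, 1 RNA sample each. Per the submitters' processing notes, the authors used RMA, of unstated version, and the deposited table holds linear intensity; RMA is known to subtract background, quantile normalize and summarise probes, which compresses differences near background. Here log2 was taken, with no filter or pseudocount. Of 45141 probe sets, 28898 had 1 symbol, 551 several and 15692 none. Of those with 1 symbol, 28689 probe sets had an Entrez identifier found in the RefSeq table of GRCm38.p6. Genes (17097) were tested in limma 3.58.1 under R 4.3.3, with 26 arrays, 9 group means, 30 contrasts and eBayes. The number of arrays limits precision. Simulated on these data, changes of 0.5 on the log2 scale were recovered for 70.6% of genes in the mean response at 4 h. The shares were 64.7% in a strain mean and 22.1% in a strain pair at 1 time. The simulation drew normal noise independently for each array and changed few genes, 68 of them by 0.5. In the real 4 h response 3113 genes were called, so the simulated recovery need not hold there. All 10 members and, per pathway list, up to 3 called genes in each direction with the largest differences were to be named. Members and lists were chosen with earlier results of these data known. No 2 arrays held identical values. Replicate numbers were not taken as pairing samples, since not every same-numbered pair was correlated. Of 25 pairs within a strain, 15 had a correlation over 0.1 (-0.36 to 0.82). These correlations cannot decide whether same-numbered arrays of a strain share a source. If they do, a strain mean over the 3 times has fewer independent arrays than counted. With the number as a random block within strain, all-gene calls in such means fell from 57 to 33 in B6.Sle1b against C57BL/6. They fell from 14 to 3 in Sle1b.BAC against B6.Sle1b, while those in the mean 4 h response rose from 3113 to 3599.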

Additional observations from a re-analysis of the deposited data

How the results depend on the processing

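Of the 55 called values of the 10 genes, 47 were still called with each array centred on its median and 46 with only the groups compared in the fit. With the second brightest probe set 47 were still called. Stim1 and Camk2b have a single probe set each and kept the same readings there, so that setting does not check their calls. Between 52 and 55 were called under the other settings that kept every biological array. No setting moved the median of all genes by over 0.1. The 3 reversals came with the second Rcan1 probe set, which is at background: 24 h against unstimulated gave -0.0404 in C57BL/6 and -0.0196 in B6.Sle1b, and 24 h against 4 h gave -0.0438 in C57BL/6. The 1 call in Sle1b.BAC against B6.Sle1b over the mean of the times (Atp2b1) became 0 with centring (adjusted p = 0.142), with the mean of a gene's probe sets (0.47), with the second brightest probe set (0.892), with only the groups compared (0.0576) and with the replicate number as a random block within strain (0.142). Calls in B6.Sle1b against C57BL/6 became 2 with array weights (Ppp3ca added), and in Sle1b.BAC against C57BL/6 2 with the 75th percentile as covariate (Atp2b1 added). Calls at single times, 1 as reported, became 2 when quantile normalized again or without the 3 dimmest arrays, 3 with all 28 arrays, the technical pair averaged or the covariate, 7 with array weights and 0 with only the groups compared. Response differences, 0 as reported, became 1 with array weights, a fit that stopped before its tolerance was reached. The causes were not tested. With the replicate number as a fixed block, a number the labels do not tie to a mouse or batch, Camk2b at 24 h (-0.25, adjusted p = 0.0517) and Ppp3ca at 24 h in C57BL/6 (-0.44, adjusted p = 0.0572) lost their calls, Nfatc1 at 4 h gained one (0.48, adjusted p = 0.0418) and no other reported call of the 10 genes was lost. As a hint from the data, the neutrophil marker mean kept its order by number at all 3 times in Sle1b.BAC, was lowest in replicate 3 of B6.Sle1b and highest in replicate 1 of C57BL/6. Leaving out each array in turn gave 4 to 5 genes at 4 h, 7 to 9 at 24 h, 5 between 4 h and 24 h, 30 to 38 in single strains, 1 in each comparison with C57BL/6, 0 to 1 in Sle1b.BAC against B6.Sle1b, 1 to 2 at single times and 0 response differences. Leaving out an array of a group of 2 leaves 1, assumed to vary like the other groups. Rcan1 and Camk2b lie near background, which limits their folds.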
